A study of Mus musculus with 10 samples.

Results

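The unfolded protein and integrated stress response was followed in interscapular brown adipose tissue (iBAT) through 10 genes chosen by name: the chaperones Hspa5 and Hsp90b1 of the endoplasmic reticulum (ER), Ern1, Xbp1 and Atf6 of the unfolded protein response, Atf4, Ddit3, Trib3 and Asns of the integrated stress response, and the mitochondrial chaperone Hspd1. They were taken by gene symbol from a table of 54347 gene records, in which they have 11 records, because Ddit3 is listed under an additional record that held 0 counts in all 10 mice. All 10 genes passed the filter on low counts. None of them passed the test for a difference between ΔGm15551 and wild type mice, and the groups overlapped for each. Levels varied from mouse to mouse within both genotypes, with Hspd1, Atf6 and Asns high in the same mice and Ddit3 low in them.

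Proteins that enter the ER are folded by chaperones such as BiP, the product of Hspa5. When unfolded proteins load the ER, the membrane sensors IRE1α, PERK and ATF6 start the unfolded protein response, in which IRE1α splices Xbp1 mRNA and ATF6 is cut to a transcription factor, and both raise chaperone genes. PERK shares the phosphorylation of eIF2α with kinases that sense missing amino acids, haem loss and viral RNA, and this integrated stress response favours the translation of ATF4, which drives genes of amino acid supply and the regulators CHOP and TRB3. Brown adipocytes in cold make large amounts of mitochondrial and lipid-handling protein, and control of protein folding and turnover is known to matter for them. Most steps of these pathways are splicing, cleavage, phosphorylation or translation, which gene-level counts do not show.

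Poly A RNA was measured in iBAT of 5 ΔGm15551 mice and 5 wild type litter mates on the C57BL/6N background, all fed chow, aged 12 weeks, and kept in single cages at 4 °C for the last 24 h. All 10 mice used here were kept in the cold, so the response to cold was not analysed here. ΔGm15551 mice carry a CRISPR/Cas9 deletion that takes out exon 1 of the long noncoding RNA Gm15551 in all cells, and they were backcrossed to wild type before use. The sex of the mice, and which of them shared a litter, were not given in the sources used here. Mice 5, 6 and 7 of the wild type group have identifiers from a higher number series than the other 7 mice. Wild type mice are listed below in the order 2, 3, 5, 6 and 7, and ΔGm15551 mice in the order 1, 2, 4, 5 and 7, which are names and not pairs.

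The deleted RNA had 0 counts in all 5 ΔGm15551 mice and 1, 2, 6, 7 and 0 counts in the wild type mice, so that at this depth wild type mouse 7 could not be told from a ΔGm15551 mouse by this gene. Total counts ran from 9680976 to 15771170 per mouse. The brown adipocyte markers of a fixed list were detected in full, 9 of 9, and summed to between 11302 and 15463 CPM (counts scaled to a common library total) in every mouse. Adipocyte markers summed to between 16357 and 19450 CPM, macrophage and T cell markers to between 18.4 and 35.7 CPM, and plasma and B cell markers, of interest because plasma cells are rich in Xbp1, to between 4.45 and 7.97 CPM. Skeletal muscle markers ranged far more widely, from a sum of 1.56 to 2977 CPM in wild type mice and of 1.35 to 1954 CPM in ΔGm15551 mice. They were highest in wild type mouse 7 and ΔGm15551 mouse 4, with 818 CPM in ΔGm15551 mouse 1. In bulk tissue, fewer cells of a type and less RNA per cell cannot be told apart.

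The first question was whether loss of Gm15551 shifted stress response genes in cold-exposed iBAT. None of the 10 genes passed edgeR's quasi-likelihood test with Benjamini-Hochberg adjustment (adjusted p = 0.9998 for each), where 0 of 13732 genes tested (0%) passed. At an unadjusted p under 0.05, 0 of the 10 genes were called, against 219 of all genes tested (1.59%), and 0 of the 10 had groups that did not overlap, against 44 of all genes tested (0.32%). DESeq2 and limma-voom also called 0 of the 10 at either threshold. By log2 fold change, 6 genes were higher and 4 lower in ΔGm15551 mice, with a median of 0.03 against -0.0009 over all genes tested. Their median size regardless of sign was 0.06, and 0.09 over all genes tested. The 95% intervals of all 10 lay within a 2-fold change in either direction, and those of 8 within 1.5-fold, the exceptions being Trib3 and Asns. The plot of fold changes shows these intervals.

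**Figure D1:**
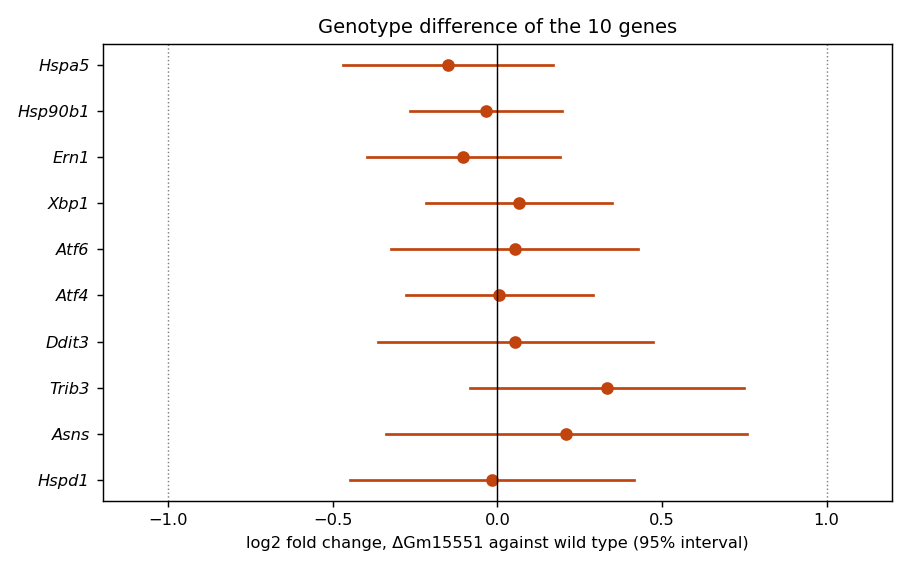
Log2 fold change of the 10 genes, ΔGm15551 against wild type (5 mice each), as points with 95% intervals from edgeR's quasi-likelihood fit. Dotted lines mark a 2-fold change in either direction. All 10 intervals cross 0, and Trib3 has the point estimate farthest from it, at 0.33.

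The ER chaperones differed between the genotypes by less than their spread. Hspa5 (chr2:34771970-34777547, plus strand, GRCm38) encodes BiP, the ER member of the HSP70 family and the textbook readout of the unfolded protein response. Hsp90b1 (chr10:86690209-86705509, minus strand) encodes GRP94, the ER member of the HSP90 family. Both are known to be raised through the ER stress response element (ERSE), which is CCAAT, 9 free bases and CCACG, and to which NF-Y and ATF6 or XBP1 bind. Their promoters are shown because this shared element marks them among the 10 genes, and because ER load would be read first from these genes. The sequences, from RefSeq on GRCm38.p6, run from 250 bases before to 50 bases after the start site at chr2:34771840-34772139 (plus strand) and chr10:86705395-86705694 (minus strand), with ERSE matches in capitals.
Hspa5: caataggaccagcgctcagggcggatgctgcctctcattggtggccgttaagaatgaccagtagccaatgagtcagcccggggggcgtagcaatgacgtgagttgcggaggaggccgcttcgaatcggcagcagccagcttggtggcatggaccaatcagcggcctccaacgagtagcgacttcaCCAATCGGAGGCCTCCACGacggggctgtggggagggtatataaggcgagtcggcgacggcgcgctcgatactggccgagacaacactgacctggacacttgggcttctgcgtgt
Hsp90b1: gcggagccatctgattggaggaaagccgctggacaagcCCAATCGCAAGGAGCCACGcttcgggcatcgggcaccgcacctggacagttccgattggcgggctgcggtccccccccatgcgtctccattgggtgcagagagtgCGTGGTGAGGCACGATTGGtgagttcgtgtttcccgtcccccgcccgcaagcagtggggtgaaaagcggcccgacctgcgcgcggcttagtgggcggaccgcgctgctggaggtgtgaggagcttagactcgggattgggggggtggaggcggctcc
The Hspa5 window holds 1 match, starting 65 bases before the start site, and the Hsp90b1 window holds 2, starting at -212 on the gene's strand and at -107 on the other strand. Searched on both strands, the element occurs in 39 of 32851 promoter windows of the same length (0.119%). A match is a string of letters and not a measured binding site.

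In wild type mice Hspa5 stood at 353, 435, 372, 336 and 267 CPM (353 ± 60.5, SD, n = 5), and in ΔGm15551 mice at 289.9, 320.5, 362, 252 and 365 CPM (318 ± 48.3, SD, n = 5). The highest mouse was wild type 3 and the lowest ΔGm15551 5, with wild type 7 nearly as low, and the groups overlapped. The log2 fold change was -0.15 (SE 0.15, 95% interval -0.47 to 0.17). Hsp90b1 stood at 231, 248, 207, 200.4 and 209 CPM in wild type (219 ± 19.8) and at 210.0, 204, 223, 193 and 239 CPM in ΔGm15551 mice (214 ± 17.7), a log2 fold change of -0.03 (SE 0.11, 95% interval -0.26 to 0.20). It was the steadiest of the 10 genes, with a 1.28-fold range from the lowest to the highest mouse against 1.73-fold for Hspa5. Of its 31-base words, 12.3% also occur in other genes, mainly an antisense pseudogene, 1810014B01Rik, that overlaps its exons, and whether the counting used strand was not stated.

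None of the sensors and their factors passed the test for a genotype difference. Ern1 encodes IRE1α, the kinase and ribonuclease that splices Xbp1. It was the lowest of the 10 genes per kilobase of merged exons and stood at 11.2, 11.1, 13.7, 10.5 and 10.4 CPM in wild type (11.4 ± 1.34) and 8.63, 12.6, 11.7, 9.03 and 11.2 CPM in ΔGm15551 mice (10.6 ± 1.70), with a log2 fold change of -0.10 (SE 0.14, 95% interval -0.40 to 0.19). Wild type mouse 5 was higher than any other mouse, while ΔGm15551 mice 1 and 5 were below all wild type mice. Xbp1, whose spliced mRNA encodes the active transcription factor, stood at 30.01, 32.95, 34.1, 31.3 and 42.3 CPM in wild type (34.1 ± 4.80) and 40.4, 43.3, 31.2, 30.9 and 32.8 CPM in ΔGm15551 mice (35.7 ± 5.72). The 3 highest mice, wild type 7 and ΔGm15551 1 and 2, stood apart from the rest, and the log2 fold change was 0.07 (SE 0.13, 95% interval -0.22 to 0.35). These counts add spliced and unspliced Xbp1 together.

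Atf6 encodes the membrane-bound factor that is released by cleavage. It stood at 45.02, 59.5, 50.4, 54.2 and 40.01 CPM in wild type (49.8 ± 7.62) and 34.8, 67.4, 60.2, 41.6 and 54.6 CPM in ΔGm15551 mice (51.7 ± 13.4), and the lowest as well as the highest mouse, 1 and 2, were ΔGm15551. Its log2 fold change was 0.05 (SE 0.17, 95% interval -0.32 to 0.43).

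In the integrated stress response, Atf4 and Ddit3 had equal group means within their spread, and Trib3 and Asns had higher means in ΔGm15551 mice without passing the test. Asns makes asparagine and Trib3 encodes TRB3, a pseudokinase that feeds back on ATF4. Both are known to be driven by ATF4 bound with a C/EBP partner at a C/EBP-ATF response element (CARE). Their promoters are shown because they alone of the members found in RefSeq held this element, searched as TGATGNAAN on both strands. The windows lie at chr6:7693160-7693459 (minus strand) for Asns and chr2:152344011-152344310 (minus strand) for Trib3, with the match in capitals.
Asns: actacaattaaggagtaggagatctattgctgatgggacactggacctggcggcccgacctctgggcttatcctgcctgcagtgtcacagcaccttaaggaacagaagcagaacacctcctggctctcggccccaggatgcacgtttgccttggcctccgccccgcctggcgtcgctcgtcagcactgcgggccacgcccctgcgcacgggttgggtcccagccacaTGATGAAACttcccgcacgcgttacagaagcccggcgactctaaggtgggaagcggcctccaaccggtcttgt
Trib3: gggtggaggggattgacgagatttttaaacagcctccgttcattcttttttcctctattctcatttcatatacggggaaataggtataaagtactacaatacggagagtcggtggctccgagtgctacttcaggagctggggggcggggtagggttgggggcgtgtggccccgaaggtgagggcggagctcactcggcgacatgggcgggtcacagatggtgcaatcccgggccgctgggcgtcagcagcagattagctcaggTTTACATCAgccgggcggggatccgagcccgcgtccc
The match starts 23 bases before the start site on the gene's strand in Asns, and 13 bases after it on the other strand in Trib3. This short element is common, with 1299 of 32851 windows (3.95%). Promoters were found for 9 of the 10 genes, without Atf6. Neither ERSE nor CARE nor an unfolded protein response element (TGACGTGG, in 222 windows or 0.676%) was found in those of Ern1, Xbp1, Atf4, Ddit3 and Hspd1, which says only that these letters are not in these windows.

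Atf4, the transcription factor of the pathway, stood at 124, 119.8, 127, 124 and 173 CPM in wild type (133 ± 22.04) and 134, 117, 119.9, 161 and 138 CPM in ΔGm15551 mice (134 ± 17.4). Apart from wild type 7 and ΔGm15551 5, the mice lay close together, and the log2 fold change was 0.01 (SE 0.13, 95% interval -0.28 to 0.29). Ddit3 encodes CHOP, the factor linked to cell death under lasting ER stress. It stood at 21.97, 14.5, 27.7, 17.9 and 28.8 CPM in wild type (22.2 ± 6.13) and 25.7, 18.7, 19.2, 29.9 and 21.6 CPM in ΔGm15551 mice (23.0 ± 4.75), so that both groups ranged from low to high, and the log2 fold change was 0.05 (SE 0.19, 95% interval -0.36 to 0.47). Ddit3 overlaps exons of Mars on the other strand, which was not separated if the counting ignored strand.

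Trib3 came nearest to a genotype difference. In wild type mice it stood at 8.13, 5.04, 6.14, 6.76 and 5.93 CPM (6.40 ± 1.15, SD, n = 5) and in ΔGm15551 mice at 6.29, 9.50, 8.16, 10.7 and 5.66 CPM (8.07 ± 2.12, SD, n = 5), so that 3 of 5 ΔGm15551 mice were above every wild type mouse. The log2 fold change was 0.33 (SE 0.19, 95% interval -0.08 to 0.75), and the unadjusted p was 0.109 by edgeR's quasi-likelihood test, with a Benjamini-Hochberg adjusted p = 0.9998. A larger size of change was measured in 8.16% of all genes tested. Leaving out ΔGm15551 mouse 7 gave 0.44 with an unadjusted p = 0.0383 by the same edgeR test, and across all 21 alternatives the estimate stayed positive, from 0.21 to 0.44.

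Asns stood at 40.1, 44.4, 37.98, 50.7 and 29.7 CPM in wild type (40.6 ± 7.81) and 30.2, 86.8, 41.3, 35.1 and 41.4 CPM in ΔGm15551 mice (47.0 ± 22.8). ΔGm15551 mouse 2 was far above all others, and the other 4 ΔGm15551 mice lay between 30.2 and 41.4 CPM, inside the wild type range of 29.7 to 50.7 CPM. The log2 fold change of 0.21 (SE 0.25, 95% interval -0.34 to 0.76) turned to -0.14 without ΔGm15551 mouse 2, and was 0.60 in the 6 mice that share numbers. Its lowest unadjusted p over the 21 alternatives was 0.0732 by edgeR, in these 6 mice with their number as a block. That mouse had the lowest Atf4 of all 10 mice and the lowest Ddit3 of the ΔGm15551 mice, with Trib3 second to ΔGm15551 mouse 5. It held the highest value of 10 of the 12 cytosolic aminoacyl-tRNA synthetases. Of the 20 ATF4 targets tested it was highest in 4, namely Mthfd2, Atf5, Sesn2 and Vldlr, named here after their values were seen, and lowest in 2, while ΔGm15551 mice 1 and 5 were also highest in 4 each. Mthfd2, of mitochondrial one-carbon metabolism, was 18.2 CPM in it and at most 7.24 CPM in wild type mice. Of the 10 genes, Xbp1, Atf6, Asns and Hspd1 were highest in this mouse, as were 13.1% of all genes tested.

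Hspd1 encodes HSP60, which folds imported proteins in the mitochondrial matrix together with HSP10, the product of Hspe1. Hspd1 stood at 659, 931, 739, 857 and 477 CPM in wild type (733 ± 177) and 528, 935, 750.0, 575 and 836 CPM in ΔGm15551 mice (725 ± 172). The groups covered nearly the same range, from 477 to 931 and from 528 to 935 CPM, and the log2 fold change was -0.02 (SE 0.20, 95% interval -0.45 to 0.42). Of its 31-base words, 53.1% also occur elsewhere, chiefly in the pseudogene Hspd1-ps3, and the 5 Hspd1 pseudogene records held at most 9 counts in any mouse. Hspd1 overlaps exons of Hspe1 on the other strand, which was not separated if the counting ignored strand. The plot of levels by mouse sets the 10 genes side by side.

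**Figure D2:**
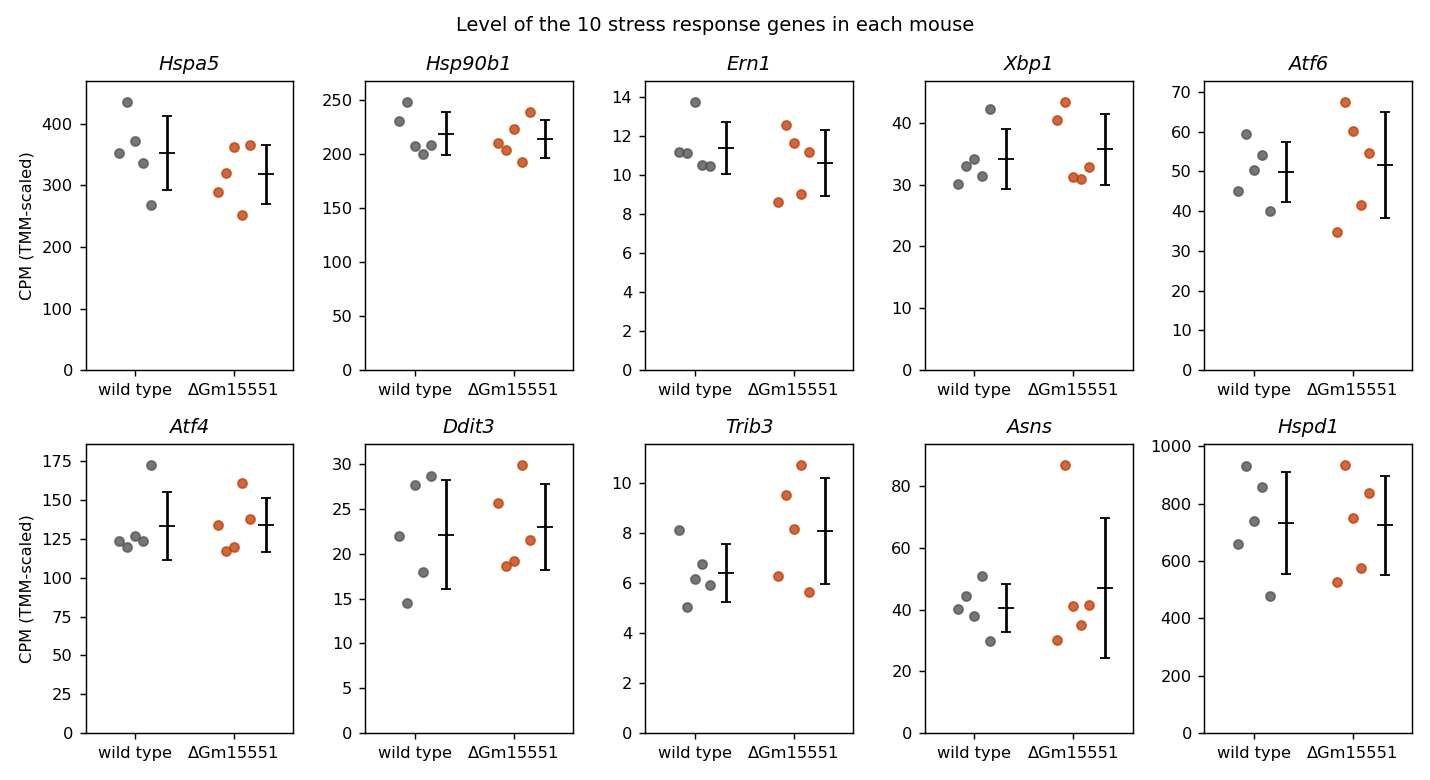
TMM-scaled CPM of the 10 genes in each mouse, with wild type in grey and ΔGm15551 in orange, and with the group mean and SD in black beside the points (5 mice each). Each axis starts at 0. The groups overlap for every gene, and Asns in ΔGm15551 mouse 2 at 86.8 CPM stands far above the other 9 mice.

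Levels between genes were compared per kilobase of merged exons. Hspd1 was the highest at 276 ± 62.4 CPM per kb (SD over 10 mice), and every mouse had more of it than any mouse had of Hspa5, the next gene at 79.3 ± 12.9. Hspa5, Atf4 (56.7 ± 7.94) and Hsp90b1 (53.7 ± 4.43) formed the second tier, with ranges that overlapped between neighbours. Asns (16.004 ± 5.99), Ddit3 (13.2 ± 3.03) and Xbp1 (10.8 ± 1.55) followed, again overlapping. The lowest tier was Atf6 (5.50 ± 1.12) and Trib3 (3.40 ± 0.863), which overlapped, with Ern1 below all of their values at 1.35 ± 0.184. Taken per mean length of the coding transcripts, Hspa5 moved behind Atf4 and Hsp90b1, at 107 against 112 and 110 CPM per kb, and Ern1 moved ahead of Trib3, at 4.31 against 3.57.

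The genes differed in how much they varied between mice of a genotype. The SD of log2 CPM within groups was 0.46 for Asns, 0.36 for Hspd1 and Ddit3, 0.32 for Trib3 and Atf6, 0.24 for Hspa5, 0.21 for Xbp1, 0.20 for Atf4 and Ern1, and 0.12 for Hsp90b1, against a median of 0.27 over all genes tested. Asns ranked at the 83.5th percentile of all genes tested and Hsp90b1 at the 6.998th. A single mouse carried part of this for Asns, whose SD was 0.26 without ΔGm15551 mouse 2, and for Atf4, at 0.14 without wild type mouse 7. Hspa5 ranked at the 41.8th percentile, Ddit3 at the 69.6th and Hspd1 at the 71.1th. Among genes of like mean CPM the percentile was 95.8 for Asns, 87.6 for Ddit3, 82.5 for Hspd1, 81.8 for Atf6 and 67.5 for Trib3. It was 51.4 for Xbp1, 50.7 for Hspa5, 41.7 for Atf4, 33.7 for Ern1 and 12.1 for Hsp90b1.

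The mouse-to-mouse changes were shared between genes. In order of rising Hspd1, the mice were wild type 7, ΔGm15551 1 and 5, wild type 2 and 5, ΔGm15551 4 and 7, wild type 6 and 3, and ΔGm15551 2, so that both genotypes were found at either end. In this order Atf6 was 40.0, 34.8, 41.6, 45.02, 50.4, 60.2, 54.6, 54.2, 59.5 and 67.4 CPM. Ddit3 was 28.8, 25.7, 29.9, 21.97, 27.7, 19.2, 21.6, 17.9, 14.5 and 18.7 CPM. In the first 3 mice of this order Atf6 was at most 41.6 CPM and Ddit3 at least 25.7 CPM, and in the last 4 Atf6 was at least 54.2 CPM and Ddit3 at most 21.6 CPM, each with steps back in between. The map of deviations shows this pattern mouse by mouse.

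**Figure D3:**
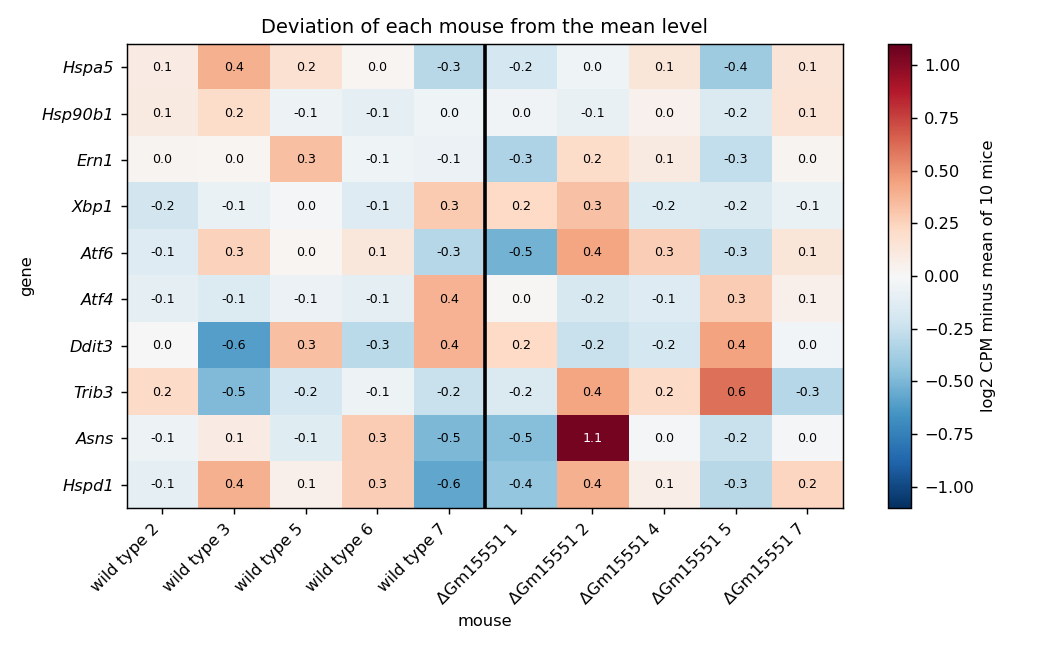
Log2 CPM of each gene in each mouse minus the mean of the 10 mice, with wild type mice left and ΔGm15551 mice right of the black line. In wild type 7 and ΔGm15551 1 and 5, Atf6, Asns and Hspd1 are below their means and Ddit3 is above, and the darkest cell is Asns in ΔGm15551 mouse 2.

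Over the 10 mice, 45 pairs of genes were correlated, and 4 passed a permutation test of Pearson's r with Benjamini-Hochberg adjustment over the 45. The closest was Atf6 with Hspd1 (r = 0.92, rho = 0.90, adjusted permutation p = 0.0063). It was 0.89 without the 2 mice farthest from the median, 0.94 within the 7 mice of the lower number series, and between 0.90 and 0.94 with any mouse left out. The higher series has only 3 wild type mice and gives no value of its own. Asns moved with Hspd1 (r = 0.79, rho = 0.98, adjusted permutation p = 0.0303) and with Atf6 (r = 0.82, rho = 0.87, adjusted permutation p = 0.0303). Without the 2 farthest mice these were 0.88 and 0.74, and within the 7 mice 0.76 and 0.79. Ddit3 moved against Hspd1 (r = -0.82, rho = -0.87, adjusted permutation p = 0.0472), with -0.78 and -0.85 under these restrictions. By Spearman's rho the same 4 pairs passed, and Ddit3 with Asns in addition (rho = -0.88, adjusted permutation p = 0.0175).

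The signs of these correlations were steadier than the calls. Between 0 and 9 pairs passed when 1 mouse was left out: 0 without wild type 2, 1 without ΔGm15551 1, ΔGm15551 5 or wild type 7, 2 without ΔGm15551 4, and 9 without wild type 5. No pair passed without the 2 farthest mice. Within the 7 mice of the lower series 3 pairs passed, Atf6 with Hspd1, Hspa5 with Hsp90b1 and Ern1 with Atf6 (adjusted exact permutation p = 0.0387 for each), while Asns with Hspd1, Ddit3 with Hspd1 and Atf6 with Asns did not (0.0770, 0.0770 and 0.0911). Among the pairs that missed the threshold were Atf4 with Ddit3 (r = 0.75, rho = 0.79), Hspa5 with Hsp90b1 (r = 0.75, rho = 0.65) and Hspa5 with Atf4 (r = -0.76, rho = -0.49), each with an adjusted permutation p = 0.0586. The pair with ERSE elements, Hspa5 and Hsp90b1, had r = 0.93 within the 7 mice but -0.02 after log2 values were corrected for GC content and transcript length in each mouse. Atf4 with Ddit3 had r = 0.83 within the 7 mice and 0.32 after this correction, and Hspa5 with Atf4 -0.71 and -0.34. The pair with CARE elements, Trib3 and Asns, had r = 0.33, and 0.63 after that correction.

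**Figure D4:**
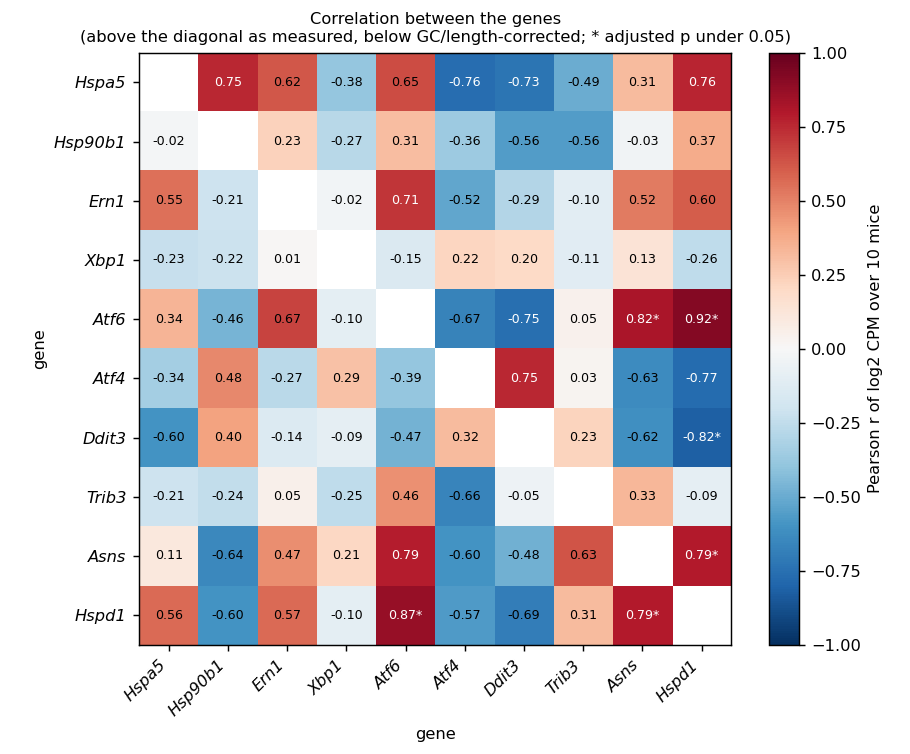
Pearson's r of log2 CPM over the 10 mice for each pair of genes, as measured above the diagonal and after correction for GC content and transcript length below it. Asterisks mark a Benjamini-Hochberg adjusted permutation p under 0.05. The 4 marked pairs above the diagonal join Hspd1, Atf6, Asns and Ddit3, and 2 pairs, Atf6 with Hspd1 and Asns with Hspd1, are marked below it.

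Measures of the tissue and of the genes were set beside this pattern. After the correction for GC content and length, the r of Atf6 with Hspd1 was 0.87, of Asns with Hspd1 0.79, of Atf6 with Asns 0.79 and of Ddit3 with Hspd1 -0.69, and 2 pairs passed. After a fit on the skeletal muscle score (the mean log2 CPM of 10 muscle markers) was taken out, they were 0.92, 0.57, 0.72 and -0.69, and 1 pair passed. Endothelial markers, 5 of 5 detected, summed to 1162, 1263, 1066, 1034, 775, 866, 859.6, 692, 838 and 741 CPM in the order of rising Hspd1. The 10 genes were set against 7 measures, namely the muscle score, the total count and the summed levels of the other 5 marker lists, and all 70 relations were computed after the data were seen. With Benjamini-Hochberg adjustment over the 70, 2 passed the permutation test of Pearson's r, Hspd1 and Atf6 with the endothelial sum (r = -0.90 and -0.87, rho = -0.87 and -0.73, adjusted permutation p = 0.0434 for both). Without the 2 mice farthest in the endothelial sum r was -0.80 and -0.71, and within the 7 mice -0.96 and -0.99, while by Spearman's rho neither passed (adjusted permutation p = 0.0679 and 0.201). By Spearman's rho Hspa5 with the adipocyte sum passed (rho = -0.92, adjusted permutation p = 0.0364), but by Pearson's r it did not (r = -0.79, adjusted permutation p = 0.122), with r = -0.82 without the 2 farthest mice and -0.78 within the 7.

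Relations with the muscle score and the brown adipocyte sum did not pass. Hspd1 and Asns had r = -0.77 and -0.68 with the muscle score (rho = -0.75 and -0.81), -0.86 and -0.70 without the 2 farthest mice and -0.69 and -0.58 within the 7. Hspd1 and Atf6 had r = 0.74 each with the brown adipocyte sum (rho = 0.56 and 0.67), 0.65 and 0.71 within the 7 mice, but 0.15 and 0.26 without the 2 farthest mice, so that the relation rests on those mice. The adjusted permutation p of Pearson's r was 0.124 for each of these 4. The part of cell makeup in the pattern was not tested further.

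The pattern was also wide. Among 8063 genes other than the 10 with a mean of at least 10 CPM, 689 had r above 0.9 with Hspd1, 353 with Atf6, 105 with Hspa5, 60 with Ddit3, 48 with Asns, 20 with Atf4, 5 with Trib3, 4 with Hsp90b1, 1 with Ern1 and 0 with Xbp1. The genes most like each, over 10 mice, were Copb1 for Hspd1 (r = 0.99), Zdhhc2 for Atf6 (0.98), Dync1li1 for Hspa5 (0.97), Prdx1 for Hsp90b1 (0.97), Atf4 with Sox13 (0.96), Ddit3 with Rai1 (0.96), Trib3 with Tln1 (0.96), Asns with Cask (0.96), Ern1 with Psmd6 (0.92) and Xbp1 with Uspl1 (0.88). These are the best of 8063 and carry no test.

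Partner genes of known role were compared next, as 14 pairs picked after the values were seen, which are given as a description with no test. Hspd1 and Hspa9, the mitochondrial HSP70 that draws proteins into the matrix, had r = 0.97 (rho = 0.92). It was 0.94 without the 2 farthest mice and 0.99 within the 7 mice of the lower series. Asns and Vldlr, a lipoprotein receptor on the ATF4 target list, had r = 0.90 (rho = 0.88), both being highest in ΔGm15551 mouse 2, and this was 0.89 without the 2 farthest mice and 0.88 within the 7. Hspe1, the obligate partner of HSP60 transcribed head to head with Hspd1, did not rank the mice alike. It stood at 200.5, 168, 196, 181 and 212 CPM in wild type and 219.6, 189, 192, 222 and 232 CPM in ΔGm15551 mice, a 1.38-fold range against 1.96-fold for Hspd1. Wild type mouse 3 had the lowest Hspe1 and the second highest Hspd1, and the r of the pair was -0.62 (rho = -0.66), -0.57 without the 2 farthest mice, -0.60 within the 7 mice and -0.30 after the GC and length correction. Trib3 with Sesn2, an ATF4 target that restrains mTORC1, had r = 0.67 (rho = 0.68), 0.43 without the 2 farthest mice and 0.82 within the 7. Some of the other pairs had an r near 0 or of the other sign, or lost it without the 2 farthest mice. Asns with Psat1, of serine synthesis and also an ATF4 target, had r = -0.35 (rho = -0.60), and -0.65 without the 2 farthest mice. Asns with Sesn2 had r = 0.55 (rho = 0.39), and -0.08 without the 2 farthest mice. It was 0.54 within the 7 mice and 0.69 after the GC and length correction. Hspa5 with Dnajb11, its ER cochaperone, had r = 0.10 (rho = 0.10). Its r was 0.28 without the 2 farthest mice, 0.68 within the 7 and 0.20 after the GC and length correction. Atf6 with Atf6b had r = 0.02 (rho = 0.26), -0.30 without the 2 farthest mice and 0.006 within the 7. After the GC and length correction this pair had r = 0.87. The other 6 pairs had r between 0.25 and 0.73, but without the 2 farthest mice between -0.35 and 0.78. After the GC and length correction they lay between -0.78 and 0.88. Atf4 with Cebpb went from 0.25 to -0.78 by this correction, Ddit3 with Cebpb from 0.61 to 0.02 and Hspd1 with Lonp1 from 0.73 to 0.88.

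The wider pathways were read from 8 lists of 118 genes, of which 111 passed the filter. None passed edgeR's quasi-likelihood test with adjustment over all genes. At an unadjusted p under 0.05, 2 were higher, against 132 of all genes tested (0.961%), and 0 were lower, against 87 (0.634%). Both belong to the cytosolic heat shock list, whose count was 1 without ΔGm15551 mouse 4, with no filter on low counts, in the 6 mice that share numbers, with or without a replicate block, and without the 3 higher-numbered wild type mice. It was 3 without ΔGm15551 1, ΔGm15551 5 or wild type 3. The 7 genes left untested were Derl3, Creb3l3, Ern2, Chac1, Pycr1, Slc7a11 and Stc2, with at most 64 counts in any mouse.

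Of the ER lists, the 16 chaperones and folding enzymes had a median log2 fold change of -0.02, between -0.14 and 0.17, with 7 positive. Calr, the lectin chaperone calreticulin and the most abundant, and Pdia6, a disulphide isomerase with the smallest p (log2 fold change 0.17, unadjusted p = 0.105 by edgeR), stood for it. ER-associated degradation (13 tested, median 0.05, from -0.10 to 0.17) was headed by Syvn1, the ubiquitin ligase HRD1, at 0.17, and the sensors and transducers (12 tested, median -0.002, from -0.14 to 0.20) by Atf6b, the paralogue of Atf6. Atf6b stood at 19.9, 16.1, 19.5, 18.6 and 19.3 CPM in wild type and 18.1, 23.05, 20.4, 25.3 and 20.5 CPM in ΔGm15551 mice, with 4 of 5 ΔGm15551 mice above all wild type mice, and a log2 fold change of 0.20 (SE 0.11, unadjusted p = 0.0975 by edgeR). The kinases, phosphatase and eIF2B subunits around eIF2α (13 tested, median -0.02) ranged from -0.12 to 0.11, with Eif2b2 at -0.11.

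Of the 20 ATF4 targets tested, 15 were positive and 5 negative, where 6830 of the 13732 genes tested were positive. The median log2 fold change was 0.08, from -0.48 for Gdf15 to 0.39 for Fgf21, both secreted stress hormones at a few CPM (unadjusted p = 0.319 and 0.128 by edgeR), and 0 passed at an unadjusted p under 0.05. That count was 1 or 2 in 10 of the 21 alternatives, among them 2 without ΔGm15551 mouse 1, 2 without ΔGm15551 mouse 2 and 1 without ΔGm15551 4 or 7 or wild type 5 or 7. Sesn2 had the smallest p, with 0.31 (SE 0.16, unadjusted p = 0.0672 by edgeR), with 14.2 ± 2.73 CPM in wild type mice and 17.6 ± 2.77 CPM after the deletion. Cebpb, which encodes a C/EBP partner of ATF4, was the most abundant and stood at 471, 270.0, 449, 447 and 399 CPM in wild type and 491, 445, 499.7, 581 and 452 CPM in ΔGm15551 mice, with wild type mouse 3 far below the rest and a log2 fold change of 0.28 (SE 0.15, unadjusted p = 0.0912 by edgeR). The 12 cytosolic aminoacyl-tRNA synthetases, many of them ATF4 targets, had 9 positive values and a median of 0.05, with Cars at 0.27 (unadjusted p = 0.0866 by edgeR). Mitochondrial chaperones and proteases (13 tested, median -0.03) kept between -0.08 and 0.14, from Hspa9 at -0.08 to Hspe1 at 0.14.

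The cytosolic heat shock list holds chaperone and cochaperone genes of the cytosol and Hsf1, the gene of the regulator HSF1. It had 10 of 12 positive values and a median of 0.12. Hspa1a, an inducible HSP70, stood at 3.13, 1.96, 1.999, 2.21 and 4.20 CPM in wild type and 2.78, 3.48, 7.27, 4.82 and 4.99 CPM in ΔGm15551 mice, a log2 fold change of 0.80 (SE 0.29, unadjusted p = 0.0157 and Benjamini-Hochberg adjusted p = 0.9998 by edgeR). It was low in all mice. Its near-identical copy Hspa1b was at 3.96 ± 1.19 CPM in wild type and 4.11 ± 1.65 CPM in ΔGm15551 mice. The copies share reads, so that the split between them is uncertain. Hsf1, named here only after its value was seen, was 21.9 to 24.4 CPM in wild type mice and 25.1 to 28.4 CPM in ΔGm15551 mice. Its groups did not overlap, and the log2 fold change was 0.23 (SE 0.09, unadjusted p = 0.0185 and Benjamini-Hochberg adjusted p = 0.9998 by edgeR). Hsp90ab1, the most abundant of the list, was of either sign across the alternatives. The plot of the 8 lists shows all 111 genes.

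**Figure D5:**
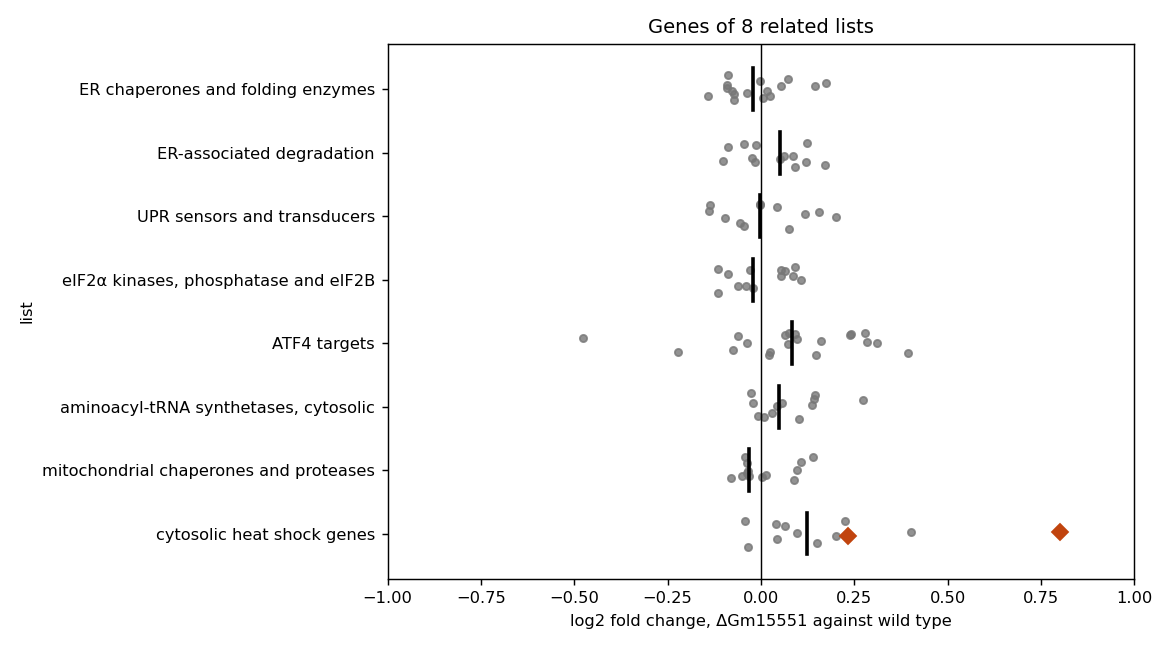
Log2 fold change, ΔGm15551 against wild type, of the 111 tested genes of 8 lists, 1 point per gene, with the list median as a black bar. Orange diamonds mark an unadjusted p under 0.05 by edgeR, which are Hspa1a at 0.80 and Hsf1 at 0.23, and the 8 medians lie between -0.03 and 0.12.

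The same elements were searched in the promoters of the 8 lists. ERSE was found in 5 of the 12 ER chaperone and folding genes with a RefSeq promoter (Calr, Canx, Creld2, Dnajc3 and Pdia6) and in Derl3 and Syvn1 of ER-associated degradation, and in 0 of the other 6 lists. CARE was found in 7 of 22 ATF4 targets (Atf3, Chac1, Fgf21, Nupr1, Pycr1, Slc7a11 and Vldlr) and not in the other 15, in 5 of 8 tRNA synthetases (Aars, Gars, Iars, Tars and Yars) and in Herpud1. The element TGACGTGG was found in Ube2j1, Vcp, Mapk8 and Nfe2l1. The shares of all windows are 0.119%, 3.95% and 0.676%, but a gene can have more than 1 window and was counted if any held the element, so that the counts cannot be read directly against them. These are matches of letters, and none of the tested genes that hold them passed an unadjusted p under 0.05 between the genotypes. Derl3, Chac1, Pycr1 and Slc7a11, which also hold one, were not tested.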

How the data were processed

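RNA was measured in iBAT of 10 mice, 5 ΔGm15551 and 5 wild type. Per the methods of the study, cutadapt trimmed the reads and the authors counted them with salmon on transcripts of GENCODE M22 (GRCm38), with or without RNAcentral added; versions and the use of strand are not given in the sources used here. The values deposited by the authors were estimated counts (expected counts), whole numbers per gene with 1 column per mouse and no scaling. Each column was matched to its mouse by name. The lowest chi-square per degree of freedom between replicates was 12.6, so no pair of libraries of the same genotype agreed within sampling noise. Pairs of libraries across the genotypes were not checked.

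The tests used edgeR 4.0.16 (R 4.3.3). The filter filterByExpr, at a minimum count of 10 and a minimum total of 15, passed 13732 genes. Libraries were scaled by TMM, and genotype alone was the term of the quasi-likelihood fit over all 10 mice, with Benjamini-Hochberg adjustment over all genes tested and a threshold of 0.05. The scripts were tested on simulated data. log2 CPM had a prior count of 2. Depth was 9680976 to 15771170 counts, and where a library has 0 counts, as many as 3 are compatible with counting error alone. Correlations were tested by 100000 permutations of the mice, two-sided, or by all orders where fewer than 9 mice remained. Positions and exon lengths came from GENCODE M21 on GRCm38, where 98.09% of the gene IDs were found, and promoters from RefSeq on GRCm38.p6. Correction for GC content and length (longest transcript of a gene) took the median deviation within 20 bins of each from log2 CPM. This correction, the fit on the muscle score for correlations, the correlations without 1 mouse, with tissue measures and with partner genes, and the fold changes without the 3 mice of highest muscle score were added after the data were seen. Alternatives were library scaling, filters, DESeq2 1.42.0, limma-voom (limma 3.58.1), a replicate block, a muscle covariate and leaving out mice. The 10 genes, the 8 pathway lists and the 6 lists of cell type markers were chosen with earlier results of these data known. Named besides the 10 were the gene of smallest p and of highest CPM in each list, and for each of the 10 the gene of highest r.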

Additional observations from a re-analysis of the deposited data

Results flagged for a closer look

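Each of the 10 genes was searched in both groups for a mouse far from the others, by a gap of more than 0.71 of the group's whole range (Dixon's 95% value for 5 samples). Of 20 groups searched, 3 held such a mouse, where chance gives about 1. Ern1 in wild type mouse 5 was 13.7 CPM, with the other wild type mice between 10.4 and 11.2 CPM. Atf4 in wild type mouse 7 was 173 CPM, against 119.8 to 127 CPM, in the mouse with the highest summed muscle markers and the lowest total count. Asns in ΔGm15551 mouse 2 was 86.8 CPM, against 30.2 to 41.4 CPM, in a mouse with the lowest summed muscle markers. The part of these measures in the values was not tested.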

How the results depend on the processing

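No gene, none of the 10 and no list gene passed the adjusted threshold under any of the 21 alternatives, while genes at an unadjusted p under 0.05 ran from 168 to 869 against 219. The mice do not pair: residuals of same-numbered mice correlated at -0.07, 0.05 and -0.39. With a replicate block in the 6 mice that share numbers, the log2 fold change was -0.021 for Atf4, -0.18 for Ddit3, 0.32 for Hspd1, 0.027 for Vcp, 0.12 for Gars and 0.11 for Hspa9, and without the block in these mice -0.025, -0.16, 0.32, 0.022, 0.11 and 0.11, all of the other sign than in 10 mice. The sign also turned without the 3 higher-numbered wild type mice for Atf6 (-0.016), Calr (-0.12), Nfe2l1 (-0.022) and Hsp90ab1 (-0.088), with the muscle score as covariate for Hspd1 (0.0059), and without the 3 mice of highest muscle score, added after the data were seen, for Hsp90ab1 (-0.023). The cause was not tested. Leaving out 1 mouse gave ranges across 0 of -0.078 to 0.014 for Hsp90b1, -0.013 to 0.15 for Xbp1, -0.062 to 0.17 for Atf6, -0.070 to 0.12 for Atf4, -0.065 to 0.16 for Ddit3, -0.14 to 0.33 for Asns, -0.14 to 0.085 for Hspd1, -0.033 to 0.061 for Calr, -0.058 to 0.028 for Vcp, -0.036 to 0.14 for Nfe2l1, -0.090 to 0.19 for Ppp1r15b, -0.084 to 0.034 for Gars and -0.037 to 0.15 for Hsp90ab1. Hspa5, Ern1 and Trib3 kept their sign but not their size, from -0.23 without wild type 7 to -0.063 without wild type 3 for Hspa5, from -0.17 without ΔGm15551 2 to -0.027 without wild type 5 for Ern1, and from 0.21 to 0.44 for Trib3. Hspa5 was -0.31 without the 3 higher-numbered wild type mice. Asns was 0.49 with the block and 0.60 without it in the 6 mice. Of the 45 gene pairs, 4 passed as measured, 8 less the group means, 7 with library totals alone, 3 within the 7 mice of the lower number series, 2 after the GC and length correction, 1 less the fit on the muscle score, 0 without the 2 farthest mice, and 0 to 9 with 1 mouse left out. Counting error is relatively largest for genes with few counts, such as Trib3 with 58 to 140 per mouse. The SE of the log2 fold change did not follow the counts, at 0.19 for Trib3 and 0.14 for Ern1 with 102 to 192 counts. It was 0.25 for Asns with 290 to 1224 counts and 0.20 for Hspd1 with 4663 to 13193 counts.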
